A study of Caenorhabditis elegans with 45 samples.

Results

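The cathepsin and lysosomal peptidase genes of *Caenorhabditis elegans* were taken as every gene in the deposited table whose name starts with *asp*, *cpr*, *cpl*, *cpz*, or *pcp*, followed by a number. The rule found 33 genes among 25985, made up of 18 *asp*, 7 *cpr*, 1 *cpl*, 2 *cpz*, and 5 *pcp* genes, and it used no measured value. The 45 libraries of whole-worm poly(A) RNA comprise 23 of the FEM strain and 22 of the GEM strain, with 2 or 3 biological replicates at each of 9 ages. FEM worms carry *fem-3(q20)* IV, which makes the germline produce sperm in excess and no oocytes, and GEM worms carry *gon-2(q388); gem-1(bc364)*, in which the gonad fails to form or is degenerate. Both strains were grown from arrested L1 larvae at the restrictive temperature on HT115 *E. coli* carrying the empty L4440 vector, and each library came from many pooled animals. Ages are hours after L1 feeding, with 41 and 49 h called day 1, 137 h day 5, and 257 h day 10. Loss of the gonad is not fully penetrant in GEM, so that visibly fertile worms were picked off and some animals held a late, degenerate gonad. Both strains are sterile mutants, and each comparison is between mutants or between ages of a mutant.

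Cathepsins and related peptidases cut proteins in the acidic lumen of the lysosome and, in the worm, also in the gut, where food bacteria are digested. The *asp* genes encode aspartic proteases of the pepsin and cathepsin D type, the *cpr* genes cathepsin B-like cysteine proteases, *cpl-1* a cathepsin L, the *cpz* genes cathepsin Z-like proteases, and the *pcp* genes serine carboxypeptidases of the prolyl carboxypeptidase type. They are made as inactive precursors that mature at low pH, and the cysteine proteases are held in check by cystatins. In nematodes these enzymes take part in digestion, in the turnover of yolk, in molting, in autophagy, and in necrotic cell death.

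Levels are given as log2 of the normalized count plus 1, so that a difference of 1 is a 2-fold change on that scale. Library depth, read from the steps between low values, was between 12807783 and 43225204 reads, and 1 read was worth 0.411 to 1.91 normalized counts. The number of genes detected ranged from 16670 to 20163. A single limma model holding 18 group means, 1 per strain and age, gave all tests, and genes with an adjusted p under 0.05 over all 16925 genes tested are called higher or lower. Of the 33 members, 30 entered the test, while *asp-16*, *asp-18*, and *asp-19* stayed below the minimum level. Replicates differed from each other at 257 h and at some other ages. The median range between replicates over the tested members was 0.92 in FEM and 0.53 in GEM at 257 h (n = 2 each). At 89 h it was 0.79 in FEM and 0.64 in GEM (n = 3 each). In FEM at 257 h, 25 of the 30 tested members were higher in replicate 2 than in replicate 1, with a median difference between replicate 1 and 2 of -0.56. In GEM at 257 h 21 were higher in replicate 1, with a median of 0.35. Results on day 10 are therefore given with what happens when each library is left out.

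Markers of other tissues moved with age and strain in these libraries, which is given here because levels of the members could move with them. The mean log2 level of 14 oocyte markers, all of them detected, went in GEM libraries from between 3.83 and 5.31 at 41 h to between 14.32 and 14.48 at 257 h, while FEM libraries held between 10.18 and 10.42 at 257 h. FEM, described as making no oocytes, held these markers at 8.6 to 11.08 over all ages. The GEM libraries of later ages thus carried RNA of oocyte markers, whereas 8 sperm markers were at 8.91 to 9.69 in FEM and at 5.69 to 5.83 in GEM at 257 h. From 41 to 257 h, 8 intestinal markers went from a mean of 11.75 to 10.22 in FEM and from 11.55 to 10.02 in GEM, and 6 body wall muscle markers from 15.4 to 11.91 and from 15.16 to 12.48. The mean of 7 hypodermal markers went from 12.91 to 5.94 in FEM and from 13.62 to 3.97 in GEM. The FEM libraries at 257 h were far apart on this list, at 3.81 and 8.06. The mean of 7 neuronal markers went from 10.4 to 11.03 in FEM and from 10.72 to 11.02 in GEM. That of 8 embryo markers, low in all groups, went from 0.88 to 1.9 in FEM and from 0.3 to 2.74 in GEM. The part of these changes in the levels of the members was not tested. In RNA of whole worms, fewer cells of a type and less RNA per cell cannot be told apart.

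Of the 33 members, 32 could be placed on the WBcel235 genome, 22 of them on chromosome V, 4 on X, 3 on IV, 2 on III, and 1 on I, and *asp-10* was not found in the annotation. Several members are direct neighbors with no other coding gene between them. On chromosome V, *asp-6* (8267511 to 8268937, minus strand) lies 272 bases from *asp-12* (8269210 to 8272056, plus strand), which lies 328 bases from *asp-5* (8272385 to 8274044, plus strand). A second row, all on the minus strand of chromosome V, holds *asp-17* (19035723 to 19037322), *asp-16* (19039030 to 19042605), *asp-15* (19043215 to 19044853), and *asp-1* (19049562 to 19050752). The pairs *asp-8* and *asp-7*, *cpr-5* and *cpr-8*, and *asp-19* and *asp-18* are likewise adjacent on V, and *pcp-3* and *pcp-2* on IV. Some neighbors differed widely in level, as *asp-1* was the most abundant member while *asp-15*, 4708 bases away, was among the lowest.

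The members spanned a wide range of abundance, which is compared here as the median normalized count per kb of merged exons over the libraries of a strain. *asp-1*, an aspartic protease of the intestine, stood first in both strains with 86270 in FEM and 65870 in GEM, followed by *asp-6* with 67310 and 63390. Next in FEM came *cpl-1*, needed for yolk processing and embryonic development, with 58460 in FEM and 26800 in GEM. *cpr-6*, a cathepsin B-like protease, had 28820 and 19910, and *asp-3*, a cathepsin D-like protease that takes part in necrotic death of neurons, had 16820 and 26910. The widest gap in rank was that of *asp-14*, 22nd in FEM with 252.0 per kb and 13th in GEM with 4507 per kb. At the other end *asp-15*, *cpr-2*, *asp-9*, *asp-7*, and *asp-16* had medians of at most 8.38 per kb in either strain, and *asp-18* and *asp-19* had medians of 0.

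Together the 33 genes took a smaller share of all normalized counts at 257 h than at 41 h in both strains, by different courses. In FEM the share was 1.68% ± 0.054 (SD, n = 3) at 41 h, 2.13% ± 0.118 (n = 3) at 97 h, 1.84% ± 0.148 (n = 2) at 137 h, and 0.77% ± 0.174 (n = 2) at 257 h. In GEM it was 2.54% ± 0.081 (n = 3) at 41 h, 1.68% ± 0.481 (n = 3) at 89 h, 0.893% ± 0.19 (n = 2) at 137 h, and 0.567% ± 0.101 (n = 2) at 257 h. At 41 h the FEM libraries, at 1.63 to 1.73%, lay below the GEM libraries, at 2.49 to 2.64%, whereas at 137 h the FEM libraries, at 1.73 to 1.94%, lay above the GEM libraries, at 0.758 to 1.03%. The *asp* genes made up most of the share, from 1.29% to 0.419% between 41 and 257 h in FEM and from 1.81% to 0.437% in GEM. The share of *cpl-1* alone went in FEM from 0.068% at 41 h to 0.291% at 137 h and stood at 0.133% at 257 h, while in GEM it went from 0.167% to 0.086% and 0.038%. These shares are a description, with no test.

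**Figure D1:**
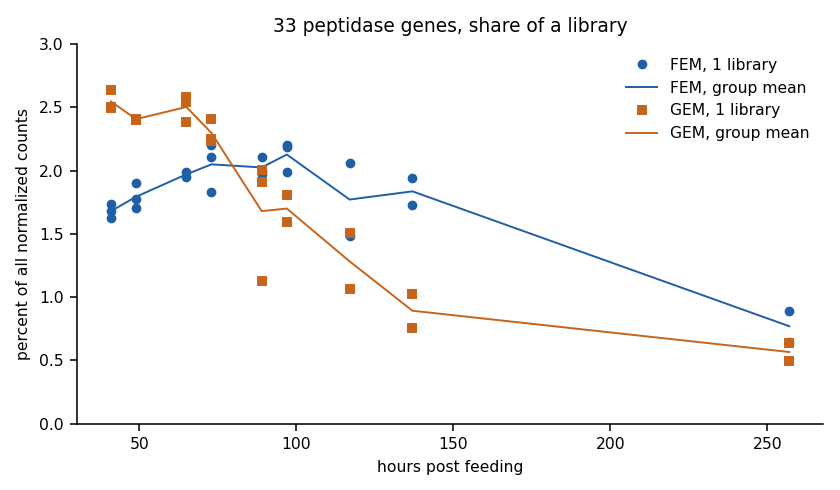
Share of all normalized counts taken by the 33 cathepsin and lysosomal peptidase genes (y axis, percent) in each library by age (x axis, hours after L1 feeding), with FEM and GEM in separate colors, a point per library, and lines through group means. GEM began higher, at 2.49 to 2.64% against 1.63 to 1.73% at 41 h, and was lower earlier, at 0.758 to 1.03% at 137 h when FEM stood at 1.73 to 1.94%.

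An age difference of any kind was called in 29 of the 30 tested members in FEM, where 64.6% of all genes tested passed, and in 29 in GEM, where 84.5% passed. The exception in both strains was *asp-9*, a low gene whose FEM libraries lay between 0.00 and 2.70. In each strain 20 members had their lowest mean at 257 h. In FEM 6 members had their highest mean at 41 h and 10 at 49 h, and in GEM 8 and 5 did. A second set in FEM peaked later, at 97 h for *asp-4*, *asp-5*, *cpl-1*, *cpr-4*, and *cpr-6* and at 117 h for *asp-17*, *cpr-1*, and *cpz-1*. Only *cpr-2* had its highest mean at 257 h in both strains, joined in GEM by *asp-9* and *asp-12*.

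**Figure D2:**
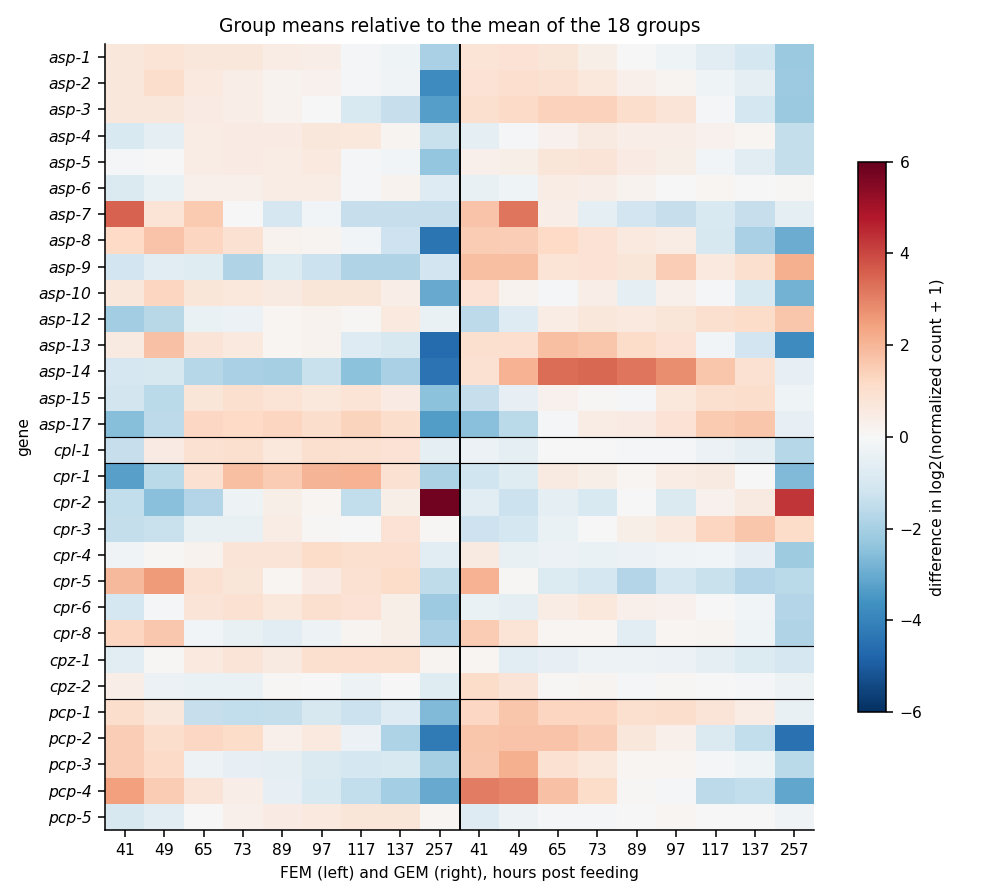
Mean log2 level of the 30 tested members (rows) in the 18 groups (columns, 9 ages of FEM then 9 of GEM), each relative to that gene's own mean over all groups, with red for higher and blue for lower. Most rows are lowest at 257 h in each strain, 20 of 30 in FEM and 20 of 30 in GEM, and *cpr-2* runs the other way.

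The last interval, from day 5 to day 10, held a broad decline of the members. In FEM 25 of 30 fell, where 10.29% of all genes did, and only *cpr-2* rose, where 6.71% of all genes did. In GEM 15 of 30 fell, against 4.61% of all genes, and again *cpr-2* alone rose, against 3.53%. The median change of the members was -1.79 in FEM and -1.18 in GEM, while the median of all genes was 0.01 and 0.12. The falling members of FEM were 13 *asp*, 5 *cpr*, 2 *cpz*, and 4 *pcp* genes and *cpl-1*. Members that fell in both strains numbered 14, which is 56.0% of those of FEM and 93.3% of those of GEM. The share of all genes that fell in both was not counted.

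*asp-2*, an aspartic protease, had levels of 13.10 and 13.46 in the FEM libraries at 137 h and of 9.23 and 10.20 at 257 h, and of 12.72 and 13.11 and then 11.48 and 11.12 in GEM. The later libraries were lower in both strains without overlap, with changes of -3.56 (SE 0.207, adjusted p = 2.3e-14) and -1.62 (SE 0.207, adjusted p = 2.1e-06). *cpr-6* went from 14.83 and 14.85 to 12 and 12.65 in FEM, a change of -2.51 (SE 0.251, adjusted p = 3.2e-09), and from 14.24 and 14.41 to 12.87 and 12.59 in GEM, a change of -1.59 (SE 0.251, adjusted p = 5.2e-05). *asp-13* fell in both strains, with changes of -3.64 in FEM and -2.64 in GEM, as did *asp-17*, with -4.41 and -2.16, the latter call being lost without any one of the 4 GEM libraries of these ages (adjusted p 0.0548 to 0.0762). *asp-10* changed by -3.44 in FEM and by -1.95 in GEM, and *asp-8* by -3.15 in FEM. Among the genes with known roles *pcp-2*, a prolyl carboxypeptidase-like gene, changed by -2.37 in FEM and fell by 3.00 in GEM. The FEM change of *pcp-2* was -1.21 without replicate 1 at 257 h. *cpr-1*, a cysteine protease of the gut, changed by -2.80 in FEM and by -2.68 in GEM. The changes of *cpl-1* were -1.41 in FEM and -1.15 in GEM, those of *cpr-4* -1.67 and -1.62, and those of *asp-4*, a cathepsin D-like protease that acts with *asp-3* in necrotic death, -1.46 and -1.54. In contrast *cpr-2* had 1.86 and 4.70 in FEM at 137 h and 9.58 and 7.85 at 257 h, a change of 5.43 (SE 1.12, adjusted p = 4.8e-04), and in GEM it went from 5.82 and 16.1 normalized counts to 313.2 and 69.1.

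Of the calls for this interval, 14 of the 25 falls in FEM and 8 of the 15 in GEM held in each of the 45 fits that left out a library. The count in GEM was 8 without replicate 2 at 257 h, and 3 when only the groups compared were in the fit. Losses were most numerous without replicate 1 of FEM at 257 h and without replicate 2 of GEM at 257 h, when *cpr-1* changed by -2.2 in FEM (adjusted p = 0.135) and *asp-3* by -0.12 in GEM (adjusted p = 0.992), against -1.18 for *asp-3* with all libraries. *asp-10* in GEM changed by -1.77 (adjusted p = 0.109) without that replicate, and *cpr-1* in GEM by -2.3 (adjusted p = 0.134) without replicate 1. The rise of *cpr-2* in GEM was lost without replicate 1 at 257 h (2.7, adjusted p = 0.277) or without either replicate at 137 h (3.12, adjusted p = 0.249, and 4.44, adjusted p = 0.0666). Intestinal markers went from means of 10.73 to 10.22 in FEM and from 10.56 to 10.02 in GEM over the same interval. Vitellogenin markers, made in the intestine, went from 17.57 to 14.05 in FEM and from 16.87 to 14.62 in GEM, and body wall muscle markers from 12.81 to 11.91 and from 13.05 to 12.48. The part of these markers in the decline was not tested.

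From day 1 to day 10 most members fell in each strain. In FEM 19 of 30 members fell, where 22.2% of all genes did, and 5 rose, where 28.9% did. In GEM 22 fell, where 21.7% did, and 6 rose, where 55.1% did. The median change of the members was -1.92 in FEM and -1.82 in GEM, beside medians over all genes of 0.26 and 1.03. Members that fell in both strains numbered 18, which is 94.7% of those of FEM and 81.8% of those of GEM. Another 4 rose in both, *asp-12*, *cpr-2*, *cpr-3*, and *pcp-5*. With most members falling in each strain much overlap follows from the counts alone. The share of all genes called in both strains was not counted, so no closer agreement is claimed. The median over all genes in GEM depends on how libraries are scaled, at -0.01 after quantile normalization and 0.36 after centering each library on its median, and the split in GEM was then 2 higher and 23 lower, or 3 and 22. *pcp-5* in GEM turned with it, to -1.17 and -0.34, so no rise of *pcp-5* is claimed for that strain.

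**Figure D3:**
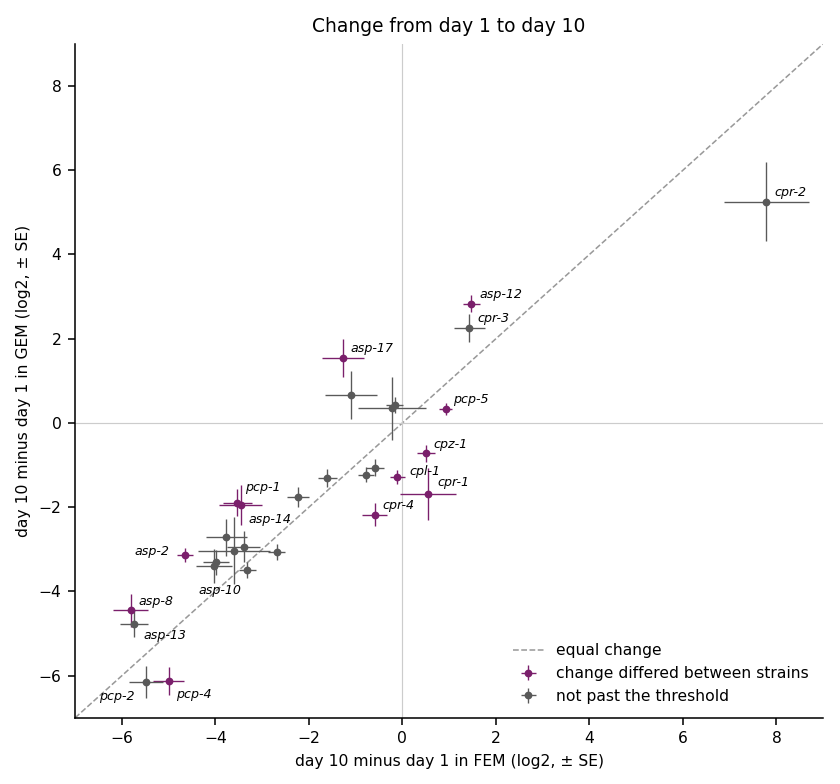
Change in log2 level from day 1 (mean of 41 and 49 h) to day 10 (257 h) in FEM (x axis) and GEM (y axis) for the 30 tested members, with bars of ±1 standard error, and purple points where the change differed between the strains (limma, adjusted p under 0.05). Most points lie below 0 on both axes, down to -6.16 for *pcp-2* in GEM, and *cpr-2* lies far above, at 7.78 in FEM and 5.26 in GEM.

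The *asp* genes held many of the deepest falls. *asp-8* was at 10.81, 10.76, and 10.63 in FEM at 41 h and at 11.43, 10.72, and 11.57 at 49 h, and then at 4.66 and 5.68 at 257 h. All later libraries lay below all early ones, a change of -5.81 (SE 0.373, adjusted p = 1.1e-14), or 56.3-fold lower, and in GEM the change was -4.45 (SE 0.384, adjusted p = 2.2e-12). *asp-13* was at 11.96 to 13.27 on day 1 and at 6.10 and 7.62 on day 10 in FEM, a change of -5.74, and changed by -4.77 in GEM. *asp-2* changed by -4.65 in FEM and by -3.13 in GEM, and *asp-3* by -3.99 and -3.31. The change of *asp-1* was -2.69 (SE 0.184, adjusted p = 5.4e-14), or 6.45-fold lower, in FEM and -3.05 (SE 0.19, adjusted p = 7.9e-16) in GEM. The fall of *asp-4* was smaller, with -0.58 (SE 0.193, adjusted p = 0.013) in FEM and -1.06 (SE 0.199, adjusted p = 1.3e-05) in GEM, and the FEM call was lost without replicate 1 at 257 h, with -0.5 and an adjusted p of 0.142. It was also lost after quantile normalization, with -0.28 and an adjusted p of 0.265. *asp-7* was at 4.56 to 5.40 in FEM at 41 h and at 0.00 in both libraries at 257 h, and no fold is given against that 0.

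The *pcp* genes fell together except for *pcp-5*. *pcp-2* was at 10.39, 10.43, and 10.50 in FEM at 41 h and at 10.11, 9.90, and 10.04 at 49 h, against 3.59 and 5.90 at 257 h. The change was -5.48 (SE 0.366, adjusted p = 2.8e-14). In GEM *pcp-2* went from 10.53 to 10.78 on day 1 to 4.95 and 4.07, the deepest fall of any member there, with -6.16 (SE 0.377, adjusted p = 5.4e-16). *pcp-4* changed by -5.001 in FEM and by -6.12 in GEM, *pcp-3*, the neighbor of *pcp-2*, by -3.32 and -3.49, and *pcp-1* by -3.53 and -1.89. *pcp-5* rose by 0.92 in FEM (SE 0.136, adjusted p = 8.6e-07), from 9.75 to 10.37 on day 1 to 10.83 and 11.17 on day 10. All 4 falls were called in both strains in each fit that left out a library.

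The cysteine proteases divided. *cpr-5*, *cpr-6*, and *cpr-8* fell in both strains, with changes of -3.76 in FEM and -2.72 in GEM for *cpr-5*, -1.61 and -1.30 for *cpr-6*, and -3.40 and -2.94 for *cpr-8*. *cpr-3* rose from 8.02 to 9.38 on day 1 to 10.34 and 10.29 on day 10 in FEM, a change of 1.44 (SE 0.328, adjusted p = 4.7e-04). In GEM *cpr-3* reached 11.37 and 11.38 from 8.86 to 9.57, a change of 2.25 (SE 0.338, adjusted p = 3.5e-07) that was 0.57 (adjusted p = 0.198) after quantile normalization. *cpr-2* was at 0.00 in 3 of the 6 FEM libraries of day 1 and at no more than 2.19 in the others, and rose to 9.58 and 7.85 at 257 h. The rise of *cpr-2* was 7.78 (SE 0.914, adjusted p = 1.1e-08) in FEM and 5.26 (SE 0.942, adjusted p = 7.1e-06) in GEM, where day 1 libraries held 1.28 to 3.03 and those of 257 h 8.30 and 6.13. At 257 h this was 69.1 to 764.1 normalized counts per library. Among the aspartic proteases *asp-12*, between *asp-6* and *asp-5* on the chromosome, rose from 6.32 to 7.26 on day 1 to 8.17 and 8.24 in FEM, a change of 1.48 (SE 0.189, adjusted p = 5.9e-08), and from at most 7.95 to 10.04 and 10.47 in GEM, a change of 2.83 (SE 0.194, adjusted p = 8.1e-15). Neighboring *asp-6* changed by 0.42 in GEM (adjusted p = 0.047), a value that was -0.25 after median centering and 0.27 (adjusted p = 0.348) without replicate 2 of GEM at 257 h.

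The change from day 1 to day 10 differed between the strains in 12 members, 6 with a higher value in FEM, where 14.5% of all genes passed in that direction, and 6 with a lower one, where 47.9% did. *cpl-1*, *cpr-4*, and *cpz-1*, the cathepsin Z gene that takes part in molting, had the higher values in FEM in each fit that left out a library. *cpl-1* was at 13.72 to 15.88 in FEM on day 1 and at 14.60 and 14.66 on day 10, a change of -0.11 (adjusted p = 0.61), and in GEM at 14.41 to 15.21 and then at 13.63 and 13.30, a change of -1.28 (SE 0.172, adjusted p = 4.2e-08). The difference between these changes was 1.18 (SE 0.24, adjusted p = 7.2e-05). For *cpr-4*, a cathepsin B-like protease that can be secreted, it was 1.59 (SE 0.383, adjusted p = 5.5e-04), with a change of -2.17 in GEM, and for *cpz-1* it was 1.22 (SE 0.273, adjusted p = 2.3e-04), with a rise of 0.50 in FEM that was lost without replicate 1 (0.61, adjusted p = 0.0654) or replicate 2 (0.39, adjusted p = 0.213) at 257 h and a change of -0.72 in GEM. These 3 differences depended on 41 h, as with day 1 taken from 49 h alone they were 0.17 for *cpl-1* (adjusted p = 0.618), 0.97 for *cpr-4* (adjusted p = 0.0578), and 0.46 for *cpz-1* (adjusted p = 0.206).

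In the other direction *asp-17* was at 6.30 to 7.88 in FEM on day 1 and at 5.38 and 6.30 on day 10, and in GEM at 6.43 to 8.04 and then at 8.60 and 8.76. The change was -1.27 in FEM and 1.54 in GEM, and their difference -2.82 (SE 0.634, adjusted p = 2.5e-04). The FEM change was -0.81 (adjusted p = 0.307) without replicate 1 at 257 h, and the GEM change was 0.51 (adjusted p = 0.355) after quantile normalization and 0.87 (adjusted p = 0.0889) after median centering. The difference for *asp-2* was -1.52 (SE 0.242, adjusted p = 1.8e-06) and that for *asp-12* -1.36 (SE 0.271, adjusted p = 5.3e-05), and both held in each fit that left out a library. After quantile normalization they were -0.4 for *asp-2* (adjusted p = 0.319) and 0.39 for *asp-12* (adjusted p = 0.308). The difference for *asp-8*, -1.36, was -0.19 (adjusted p = 0.756) without replicate 1 of GEM at 257 h and -0.85 (adjusted p = 0.238) without replicate 1 of FEM. That for *asp-14*, -1.49 with an adjusted p of 0.049, lost its call in 28 of the 45 fits that left out a library and was -0.02 (adjusted p = 0.984) without replicate 1 of GEM at 257 h. That for *pcp-1* was -1.64 (SE 0.451, adjusted p = 0.0021), and -0.95 (adjusted p = 0.0909) without that library. Without replicate 1 of FEM at 257 h 3 members were lower, and without replicate 2 of FEM 3 were higher and 11 lower. Counts for this contrast were 11 higher and 3 lower after quantile normalization, where 31% of all genes were higher and 32.8% lower, and 12 and 3 after median centering, where 26.4% and 39.6% were. The median over all genes was -0.84, 0.08 after quantile normalization, and -0.22 after centering.

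Within day 1, the 8 h from 41 to 49 h cover the first hours after the last molt. In FEM 7 members rose, where 23.2% of all genes did, and 3 fell, where 12.6% did. *cpl-1* was at 13.72, 13.94, and 13.78 at 41 h and at 15.74, 15.88, and 15.35 at 49 h, a rise of 1.85 (SE 0.167, adjusted p = 4.9e-10), or 3.60-fold, without overlap. *asp-13* rose by 1.24, *cpr-6* by 1.00, and *cpz-1* by 0.75, and *cpz-2*, the second cathepsin Z gene, fell by 0.78 (SE 0.171, adjusted p = 4.4e-04), all of which held in each fit that left out a library. *cpr-1* rose by 1.66 (adjusted p = 0.027), with 9.85, 10.11, and 9.80 before and 12.32, 11.74, and 10.69 after, and lost the call without replicate 1 at 49 h (1.3, adjusted p = 0.145). *pcp-4* fell by 0.93 (adjusted p = 0.024; 0.076 without replicate 2 at 49 h), and *asp-7* changed by -2.73 (adjusted p = 0.0051), which became -1.62 (adjusted p = 0.109) without that same library. Without replicate 1 at 41 h or replicate 1 at 49 h 4 members rose, and without replicate 2 at 49 h 1 fell. After quantile normalization or median centering 4 members rose and 4 fell.

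In GEM 2 members rose over the same hours, where 11.9% of all genes did, and 3 fell, where 8.07% did. *cpr-5* was at 14.30, 14.96, and 14.67 at 41 h and at 12.16 and 13.06 at 49 h, a change of -2.03 (SE 0.481, adjusted p = 0.0026), while the FEM libraries of *cpr-5* went from 14.41, 14.50, and 14.51 to 15.05, 15.02, and 15.26. *cpr-4* changed by -1.003 and *cpz-1* by -0.77, and *asp-12* rose by 0.79 and *pcp-5* by 0.47. Without either replicate 1 or replicate 2 at 41 h 1 of the rises was left. Each of these 5 calls was lost without replicate 1 of GEM at 49 h, when 1 library remains in that group and its spread is taken from the other groups. The changes were then -1.59 for *cpr-5* (adjusted p = 0.104), -0.76 for *cpr-4* (0.246), -0.53 for *cpz-1* (0.252), 0.66 for *asp-12* (0.13), and 0.31 for *pcp-5* (0.391). The difference between the strains over these hours was not tested.

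**Figure D4:**
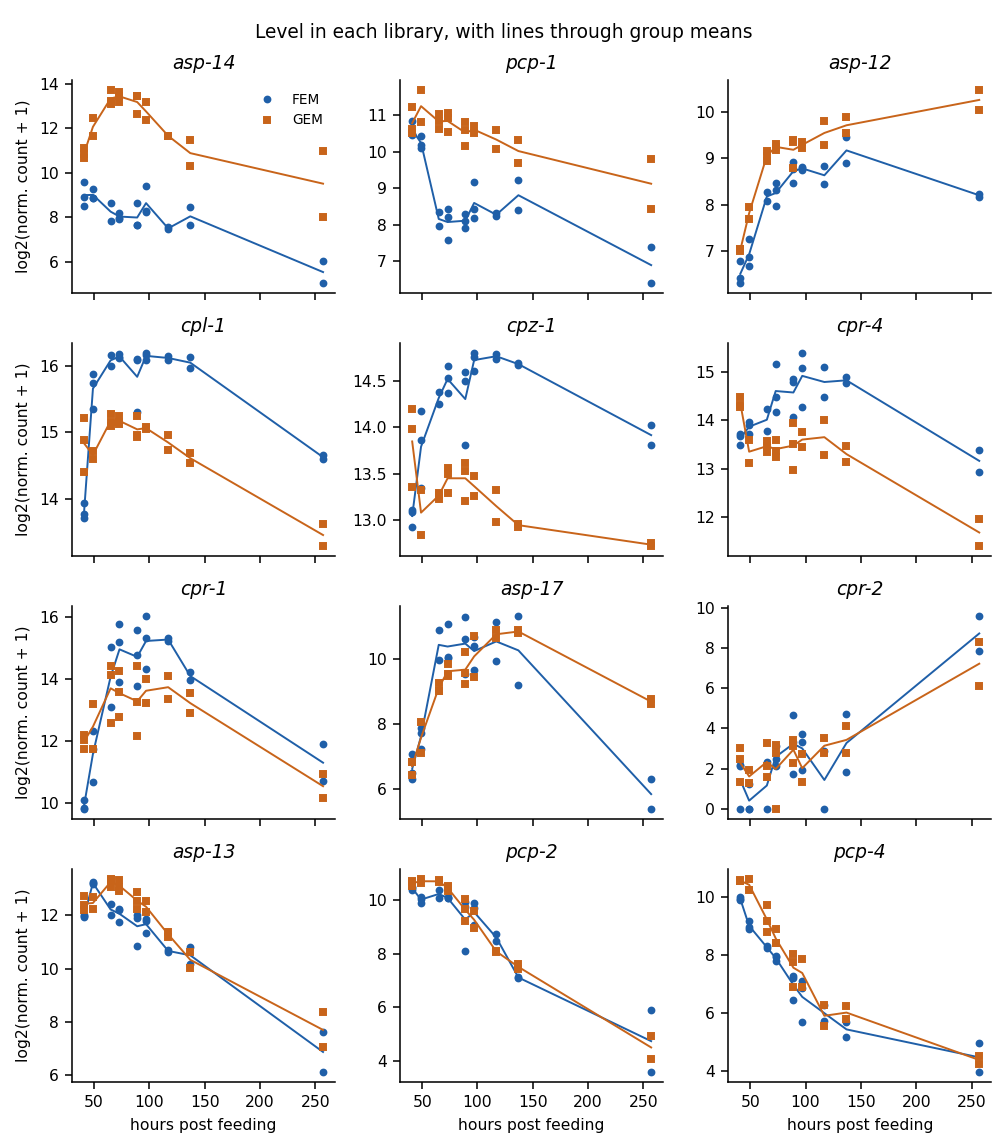
Log2 level (y axis) of 12 members in each library by age (x axis, hours after L1 feeding), a panel per gene, with FEM and GEM in separate colors and lines through group means. *asp-14* in GEM lies above FEM at all 9 ages, *cpl-1*, *cpz-1*, and *cpr-4* cross after 41 h, and *cpr-2* is highest at 257 h in both strains.

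Averaged over the 9 ages, 9 members were higher in FEM, where 31.1% of all genes were, and 11 were lower, where 38.6% were. The median difference was -0.13 for the members and -0.08 for all genes. These counts depend on scaling. They were 9 higher and 14 lower after quantile normalization, where 22% of all genes were higher and 63.4% lower, and 4 and 23 after median centering, where 16.6% and 73.6% were. The median over all genes was then -0.45 and -0.69. Of the members higher in FEM, *asp-1* (-0.29), *cpr-6* (-0.35), and *pcp-5* (-0.33) were called lower after centering, and *asp-10* (-0.01, adjusted p = 0.939) and *cpr-1* (-0.05, adjusted p = 0.841) were no longer called.

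*asp-14* was the member furthest apart between the strains. Its lowest, median, and highest libraries were at 5.06, 8.25, and 9.59 in FEM and at 8.04, 12.40, and 13.72 in GEM, and the 2 strains did not overlap at any of the 9 ages. The difference was -3.96 (SE 0.171, adjusted p = 1.3e-20), or 15.6-fold lower in FEM. *asp-9*, a low gene, had 0.00, 1.37, and 2.70 in FEM and 2.63, 3.56, and 5.18 in GEM, and likewise lay lower in FEM at every age, with a difference of -2.48 (SE 0.269, adjusted p = 7.2e-10). The FEM libraries were all below those of GEM at all 9 ages for 0.750% of all genes tested, and at 8 or 9 ages for 2.58%. The latter group held 4 members, *asp-9*, *asp-12*, *asp-14*, and *pcp-1*. *pcp-1* had 6.41, 8.35, and 10.86 in FEM and 8.44, 10.61, and 11.70 in GEM, a difference of -1.84 (SE 0.117, adjusted p = 9.3e-16), or 3.58-fold. *asp-12* differed by -0.86 (SE 0.07, adjusted p = 8.1e-13), *pcp-3* by -0.79 (SE 0.068, adjusted p = 3.1e-12), and *asp-3* by -0.72 (SE 0.105, adjusted p = 3.1e-07).

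The members higher in FEM were led by cysteine proteases, but others of that kind were lower there. *cpr-3* differed by -0.50 (SE 0.122, adjusted p = 5.3e-04) and *cpz-2* by -0.37 (SE 0.064, adjusted p = 4.5e-06). *cpr-5*, a cathepsin B-like gene, had a lowest, median, and highest library of 9.95, 13.46, and 15.26 in FEM and of 9.88, 11.42, and 14.96 in GEM, a difference of 1.61 (SE 0.16, adjusted p = 9.6e-11), or 3.06-fold. *cpz-1* was 0.97 higher in FEM (SE 0.071, adjusted p = 3.6e-14), *cpr-4* 0.90 (SE 0.099, adjusted p = 1.2e-09), and *cpl-1* 0.84 (SE 0.062, adjusted p = 6.2e-14). *cpl-1*, *cpr-4*, and *cpz-1* shared a course, with the FEM libraries all below those of GEM at 41 h and all above them at all 8 later ages. Whatever the order at 41 h, FEM libraries lay above at 8 or 9 ages for 13.5% of all genes tested, and for no other member. The share of all genes with the full course was not counted. *cpl-1*, for instance, stood at 16.19, 16.09, and 16.16 in FEM and at 15.05 and 15.08 in GEM at 97 h. *asp-10* differed by 0.60 (SE 0.147, adjusted p = 5.7e-04) and by -0.01 after median centering. Vitellogenin markers, a mean over 6 genes, moved with age in the same libraries, from 13.15 at 41 h to 17.57 at 137 h and 14.05 at 257 h in FEM and from 9.7 to 16.87 and 14.62 in GEM, and their part in these differences was not tested.

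On day 1 the comparison ran mostly toward GEM. Only *cpr-5* was higher in FEM, by 1.17 (SE 0.323, adjusted p = 0.0021), while 45.5% of all genes were, and 10 members were lower, where 17.7% of all genes were. The call on *cpr-5* came from 49 h, as with 41 h alone the difference was -0.17, and it was lost after quantile normalization (0.78, adjusted p = 0.0564). The lower members were *asp-9* (-2.70), *asp-14* (-2.47), *cpr-1* (-1.47), *pcp-4* (-1.03), *cpz-2* (-0.90), *asp-12* (-0.70), *pcp-1* (-0.60), *pcp-3* (-0.56), *asp-4* (-0.38), and *pcp-5* (-0.26). The calls on *asp-4*, *cpr-1*, *pcp-1*, and *pcp-5* were lost without replicate 1 of GEM at 49 h, with adjusted p-values of 0.185, 0.0589, 0.232, and 0.172, which leaves 6 lower members. The count of lower members was 19 after quantile normalization, where 50.2% of all genes were lower, and 26 after median centering, where 54.8% were. At 41 h the strains did not overlap, with FEM below, in 18 of the 30 members, against 17.8% of all genes, and with FEM above in 1, *asp-7*, against 44.7%.

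On day 10, 3 members were higher in FEM, against 21.3% of all genes, and 12 were lower, against 40.4%. The 3 were *cpr-4* with 12.93 and 13.39 against 11.40 and 11.96, *cpz-1* with 13.81 and 14.02 against 12.72 and 12.75, and *cpl-1* with 14.60 and 14.66 against 13.63 and 13.30. Their differences were 1.48 (SE 0.327, adjusted p = 2.0e-04), 1.18 (SE 0.233, adjusted p = 5.0e-05), and 1.16 (SE 0.205, adjusted p = 9.7e-06). Lower in FEM were *asp-14*, at 5.06 and 6.04 against 10.99 and 8.04, with -3.96 (SE 0.563, adjusted p = 3.4e-07), *asp-17* with -2.83, *pcp-1* with -2.24, and *asp-12* with -2.06. *asp-9* differed by -3.27 and *asp-15* by -2.18, both low genes, at 2.70 and 0.00 against 4.76 and 4.47 for *asp-9* and at 0.55 and 0.00 against 2.21 and 2.70 for *asp-15*. Libraries did not overlap in 3 members with FEM above, against 30.1% of all genes, and in 11 with FEM below, against 47.9%. The calls on *asp-3*, *asp-5*, and *asp-8* were lost without replicate 1 of GEM, when the differences were -0.01, -0.17, and -0.24, and also without replicate 1 of FEM, when they were -0.6 (adjusted p = 0.215), -0.74 (0.0682), and -0.89 (0.168). Without replicate 2 of FEM *asp-9* gave -1.92 (adjusted p = 0.109) and *asp-15* -1.9 (0.0525), and *asp-15* gave -1.93 (0.0512) without replicate 2 of GEM. The call on *cpr-3*, with -1.06, was lost without any one of the 4 libraries, at -1.09 to -1.03 (adjusted p 0.0641 to 0.0794). Without replicate 1 of FEM 5 members were higher, and after quantile normalization 5 were higher and 8 lower.

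**Figure D5:**
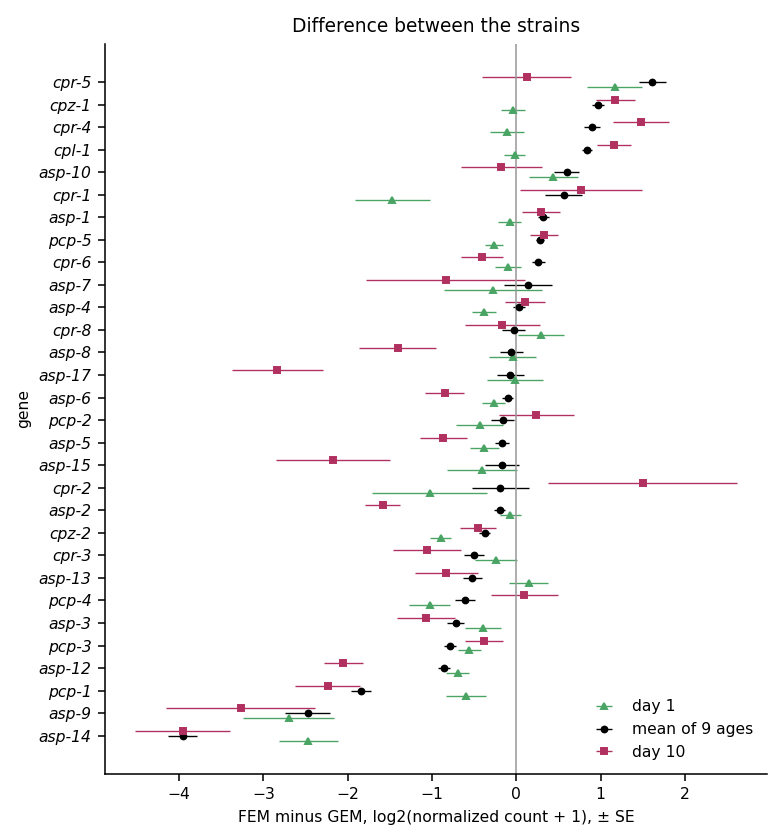
Difference in log2 level between the strains (x axis, FEM minus GEM) for the 30 tested members (y axis) on day 1, over all 9 ages, and on day 10, with bars of ±1 standard error. *asp-14* is furthest to the left with -3.96 over all ages, and *cpl-1*, *cpz-1*, and *cpr-4* move from near or below 0 on day 1 to between 1.16 and 1.48 on day 10.

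*asp-18* was all but silent except in 1 library. It was above 0 in 4 of 45 libraries, with a log2 level of 13.76, about 13900 normalized counts, in replicate 1 of GEM at 257 h and 0.00 in replicate 2 of the same group. The other 3 libraries held 5.31 (FEM at 137 h, replicate 2), 2.76 (GEM at 137 h, replicate 2), and 1.89 (FEM at 257 h, replicate 2). That library exceeded the next highest by 8.45, the second largest such excess of all 25985 genes in that library. In it 8 genes stood more than 3 above every other library, among them *scl-19*, *F35E8.6*, *F35E8.7*, and *clec-18*, with levels of 12.67, 8.45, 8.51, and 7.44, named after their values were seen. Without *asp-18* the share of the members in that library was 0.591% in place of 0.638%. The adjacent *asp-19* was above 0 in 2 libraries, with 2.05 (FEM at 41 h, replicate 3) and 1.96 (GEM at 257 h, replicate 1), and *asp-16* reached at most 5.31 in GEM at 65 h. These 3 genes did not enter the test.

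Other genes of the lysosome were followed from lists of its hydrolases, cystatins, membrane proteins and regulators, and the vacuolar ATPase. Of 33 other hydrolases, 20 fell and 7 rose from day 1 to day 10 in FEM, and 20 fell and 5 rose in GEM (25 and 1 after quantile normalization). Of all genes 22.2% fell and 28.9% rose in FEM, and 21.7% fell and 55.1% rose in GEM. The median change of these hydrolases was -1.04 in FEM and -1.1 in GEM, beside 0.26 and 1.03 for all genes. The largest falls in FEM were those of the cathepsin A-like genes *ctsa-3.1* (-4.64) and *ctsa-1.2* (-3.76) and of *aagr-4*, an alpha-glucosidase-like gene (-4.16). In GEM they were those of *aagr-4* (-5.62), *gba-4*, a glucocerebrosidase-like gene (-5.49), and *lipl-3*, a lysosomal lipase-like gene (-5.35). *asm-1*, an acid sphingomyelinase, rose in both, by 1.17 and 1.19, *lipl-4*, another lipase, by 1.5 in GEM, and *T28H10.3* by 1.52 in FEM. Of these hydrolases 1 was called higher in GEM after quantile normalization, and 2 after median centering. The GEM rises of *asm-1* and *lipl-4* therefore did not both keep their call after quantile normalization. *lipl-1* had 2.6 in FEM, a call lost in a fit without 1 library (adjusted p = 0.163), and *hex-1*, a hexosaminidase, had 1 in GEM, which turned to -0.41 after quantile normalization and was lost in a fit without 1 library (adjusted p = 0.709). From day 5 to day 10, 20 hydrolases fell in FEM, where 10.29% of all genes did, and 13 in GEM, where 4.61% did. Their medians were -1.05 and -0.79, beside 0.01 and 0.12 for all genes. Over both intervals fewer falls were called without replicate 1 of FEM or replicate 2 of GEM at 257 h.

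Both cystatins, inhibitors of the cysteine proteases, rose from day 1 to day 10. *cpi-1* rose by 2.71 in FEM and by 2.3 in GEM, and *cpi-2* by 1.67 and 1.8, under each scaling tried and in each fit that left out a library. In FEM the levels at 137 h were already near those of 257 h, with means for *cpi-1* of 10.04 at 41 h, 13.32 at 137 h, and 13.28 at 257 h, and for *cpi-2* of 11.68, 13.47, and 13.7. In GEM the means were 10.2, 12.8, and 13.25 for *cpi-1* and 11.92, 13.09, and 13.77 for *cpi-2*. Of 18 membrane proteins and regulators 10 rose and 2 fell in FEM, and 12 rose and 5 fell in GEM, which became 7 and 7 after quantile normalization. Of all genes 28.9% rose and 22.2% fell in FEM, and 55.1% rose and 21.7% fell in GEM. The medians of the list were 0.46 and 1.2, beside 0.26 and 1.03 for all genes. Without replicate 1 of GEM at 257 h 3 fell there. They included rises of *lgg-2*, an ATG8-like autophagy protein (1.67), *ctns-1*, the cystinosin homolog (1.39), and *ncr-1*, an NPC1 homolog (1.12) in FEM, and of *cup-5*, the mucolipin homolog (3.24), *ctns-1* (3.16), and *laat-1*, a lysosomal exporter of lysine and arginine (2.12) in GEM. Falls included *glo-1*, a Rab of the gut granules (-2.08), and *cln-3.1*, a homolog of the Batten disease gene (-1.31), in FEM, and *cln-3.1* (-3.37), *cln-3.3* (-2.03), and *lmp-2* (-0.83) in GEM.

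The vacuolar ATPase acidifies the lysosome, and of its 21 genes 18 fell from day 1 to day 10 in FEM, with a median of -1.45, led by *vha-6* (-2.57), *vha-12* (-2.39), and *vha-3* (-1.86). In GEM the median was -0.61 and 13 fell, led by *vha-6* (-2.64), *vha-5* (-2.3), and *vha-12* (-1.77), and 4 rose, among them *vha-18* (5.52), *vha-7* (2.34), and *vha-9* (0.72). *vha-6* is also one of the intestinal markers. Of all genes 22.2% fell and 28.9% rose in FEM, with a median of 0.26. In GEM 21.7% fell and 55.1% rose, with a median of 1.03. After quantile normalization the GEM counts were 18 lower and 2 higher, where 38.6% of all genes were lower and 40% higher. Not all of the rises named for GEM kept their call there. That of *vha-9*, at 0.72, lay below the GEM median of all genes, 1.03. Over all ages 16 of the 21 were lower in FEM, where 38.6% of all genes were, and 1, *vha-18* (1.15), was higher, with *vha-7* (-0.79), *vha-9* (-0.3), and *vha-5* (-0.24) the lowest.

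Over all ages 14 of the 33 other hydrolases were lower in FEM and 7 higher, where 38.6% of all genes were lower and 31.1% higher. The counts became 30 and 2 after median centering, where 73.6% of all genes were lower and 16.6% higher. The extremes were *asm-3*, an acid sphingomyelinase (-2.82), *nuc-1*, a DNase II (-1.84), and *lipl-1* (-1.45) on the lower side and *ctsa-1.1* (1.33), *aman-1*, an alpha-mannosidase (0.94), and *hex-1* (0.74) on the higher side. Of the membrane proteins and regulators 9 were lower, with *laat-1* (-1.0), *cup-5* (-0.79), and *slc-36.1* (-0.58) first, and 6 higher, with *ncr-2* (4.55), *cln-3.1* (1.03), and *ncr-1* (0.7) first, which became 13 and 2 after centering. *cpi-2* was 0.31 higher in FEM and -0.3 after centering.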

How the data were processed

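RNA-seq of whole worms of FEM and GEM was analyzed from the table of the whole series. Per the submitters' processing notes and the study's methods, the authors trimmed reads with Trim Galore 0.4.4, mapped them with HISAT2 2.1.0 to WBcel235 as non-directional single-end reads, counted exactly overlapping reads per gene with isoforms merged in SeqMonk, and normalized the counts with DESeq2. The deposited unit is the natural log of 1 plus the normalized count. That base was read from the values, since 100% of the low values checked in each library came out as whole reads as natural logs, against at most 38.4% as log2 and 85.7% as log10. Unmapped columns numbered 0. Since counting used no strand, overlapping genes cannot be told apart. *asp-2* shares 74 bases with *inx-10*, *cpz-2* 59 with *gcy-34*, and *asp-4* 33 with *R12H7.4*.

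Values were converted to log2 and fitted with limma 3.58.1 in R 4.3.3, with 18 group means, moderation with trend, and Benjamini-Hochberg adjustment over 16925 genes whose deposited values averaged 1 or more. The fit was also run on simulated data that had, for each gene, the same spread in all libraries. Such data cannot show how a spread that differs between groups affects the calls. Alternatives were quantile normalization, centering on the library median, a pseudocount of 8, other filters and fits, 41 or 49 h alone as day 1, and leaving out each library. Positions are from the Ensembl annotation of WBcel235. Members with a known role and up to the 5 largest called differences of each contrast and direction were chosen for description. From each list up to the 3 largest were chosen. Not every called value of these genes is given. The members and lists were chosen with earlier results of these data known. *trp-3*, *ctsa-4.1*, and *ctsa-4.2* were not used here.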

Additional observations from a re-analysis of the deposited data

Results flagged for a closer look

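The change from day 1 to day 10 differed between FEM and GEM, by a limma test of the difference itself, in 12 of 30 members. Of all genes tested 62.4% differed, 14.5% with a higher value in FEM and 47.9% with a lower one. Where FEM changed less downward or more upward than GEM, the difference in log2 change was 1.18 for *cpl-1*, 2.24 for *cpr-1*, 1.59 for *cpr-4*, 1.22 for *cpz-1*, 1.12 for *pcp-4*, and 0.6 for *pcp-5*. Where the reverse held, it was -1.52 for *asp-2*, -1.36 for *asp-8*, -1.36 for *asp-12*, -1.49 for *asp-14*, -2.82 for *asp-17*, and -1.64 for *pcp-1*. With 49 h alone as day 1 the calls on *cpl-1*, *cpr-4*, and *cpz-1* were lost. After quantile normalization those on *asp-2* and *asp-12* were lost, and the difference for *asp-12* changed sign. The calls on *cpl-1*, *cpr-4*, *cpz-1*, *asp-2*, *asp-12*, and *asp-17* held in each fit that left out a library, and the other 6 were lost in at least 1. *cpr-1* gave 1.64 (adjusted p = 0.159) without replicate 2 of FEM at 257 h, and *pcp-4* gave 0.61 (adjusted p = 0.335) and *pcp-5* 0.43 (adjusted p = 0.102) without it.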

How the results depend on the processing

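When each library was left out in turn, 11 of 25 falls in FEM and 7 of 15 in GEM from day 5 to day 10 lost their call at least once, as did 6 of 12 lower members at day 10, 4 of 10 at day 1, and the 2 rises and 3 falls for 49 h against 41 h in GEM. Counts of called members moved with scaling. After median centering, the difference over all ages gave 4 higher and 23 lower, that at day 1 gave 0 and 26, the day 10 against day 1 change in GEM gave 3 higher, its difference between strains gave 12 and 3, and 49 h against 41 h in FEM gave 4 higher. After quantile normalization, day 1 gave 0 higher and 19 lower, day 10 gave 5 higher, the GEM change gave 2 higher, the difference in change gave 11 and 3, and 49 h against 41 h gave 4 higher in FEM and 1 in GEM. With 49 h alone as day 1, the strain difference gave 4 higher, the GEM change 3 higher, and the difference in change 3 higher. With only the groups compared in the fit, day 1 gave 3 higher, day 10 against day 5 in GEM gave 0 higher and 3 lower, and 49 h against 41 h gave 13 higher and 5 lower in FEM and 0 and 0 in GEM. A minimum mean of 3 removed *cpr-2* and left 0 higher for day 10 against day 5 in both strains.

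Directions turned after median centering for the difference over all ages of *asp-1* (-0.29), *asp-10* (-0.01), *cpr-1* (-0.05), *cpr-6* (-0.35), and *pcp-5* (-0.33) and for the GEM change of *asp-6* (-0.25) and *pcp-5* (-0.34). They turned after quantile normalization for the GEM change of *pcp-5* (-1.17) and the difference in change of *asp-12* (0.39), and with 41 h alone for *cpr-5* at day 1 (-0.17). The cause was not tested.

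Leaving out a library gave, as higher and lower members, 8 to 9 and 11 to 12 over all ages, 1 to 1 and 6 to 12 at day 1, 3 to 5 and 8 to 14 at day 10, 4 to 5 and 16 to 20 for day 10 against day 1 in FEM, 4 to 6 and 20 to 22 in GEM, 3 to 9 and 3 to 11 for their difference, 1 to 1 and 17 to 26 for day 10 against day 5 in FEM, 0 to 1 and 8 to 17 in GEM, 4 to 8 and 1 to 3 for 49 h against 41 h in FEM, 0 to 3 and 0 to 3 in GEM, and 29 to 29 in FEM and 28 to 29 in GEM for any age difference. No paired analysis was possible because the labels carry library codes in place of replicate numbers and do not say which libraries of different groups were prepared together. The codes of FEM and GEM libraries are consecutive at 41 and 257 h, where each library has such a partner in the other strain. Some libraries have such a partner at each other age except 137 h. Whether libraries with consecutive codes share a batch was not tested.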
